A study of Mus musculus with 6 samples.

Results

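The genes described here are those of the proteasome, the barrel-shaped protease that degrades proteins tagged with ubiquitin. Members were the protein-coding rows of the deposited table whose symbol begins with Psma to Psmg followed by a digit. A row counted as protein-coding when its transcript types included that type, which gave 50 of 27480 genes. They fall into 14 subunits of the constitutive 20S core, 5 immunoproteasome genes, 17 subunits of the 19S regulatory particle and 14 remaining members. Another 4 rows with matching symbols list no protein-coding transcript and were left out, and 7 of the 50 carry the protein-coding type alone. Psmc3ip, a meiotic recombination factor, matches by its symbol and is no proteasome subunit.

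OT1 CD8+ T cells, from which the RNA was taken, are cytotoxic mouse T cells whose transgenic receptor recognises an ovalbumin (OVA) peptide. In 3 libraries the cells overexpressed PTMA, the acidic nuclear protein prothymosin alpha, and in 3 they carried the empty overexpression vector. The labels call the genotype of all 6 libraries WT, and both groups received OVA peptide for 48 h. The species of the construct is not named, and nothing says that replicates are separate cultures or mice. The p-values thus cover the spread among 6 libraries, and that spread may be technical. The comparison of PTMA with vector asks how added PTMA changes the RNA of activated CD8+ T cells, and here how it bears on the proteasome.

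Libraries held 54989408 to 66767589 counts. Levels are given as CPM, counts scaled to a common library size after TMM normalization, and a count of 0 allows up to 0.0449 to 0.0546 CPM in a single library. Vector 3 stood apart over the whole table, with a chi-square per gene of 53.3 and 84.8 against vector 1 and vector 2, where vector 1 against vector 2 gave 17.7 and the PTMA libraries 21.4 to 31.8. Ptma itself had 1152, 1346 and 1272 CPM in PTMA 1 to 3, against 848, 783 and 1146 CPM in vector 1 to 3. Its log2 fold change of 0.44 (SE 0.13) missed the threshold of 0.05 (edgeR quasi-likelihood test, Benjamini-Hochberg adjusted p = 0.951). The 7 CD8 T cell markers summed to 4519 to 4849 CPM in the PTMA and 4397 to 5027 CPM in the vector libraries, while Cd4 and Foxp3 together stayed at or below 1.36 CPM in every library. The extraction protocol in the labels speaks of an adipose sample, while all other labels name CD8+ T cells.

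The 20S core is a stack of rings in which alpha subunits form the gate and beta subunits carry the proteolytic sites. The 19S particle caps it: its lid and base bind and strip ubiquitin chains, and the ATPases of the base unfold the substrate and push it into the core. Interferon-gamma and T cell activation bring in the inducible catalytic subunits Psmb8, Psmb9 and Psmb10, which replace Psmb5, Psmb6 and Psmb7 and change which peptides are cut for presentation on MHC class I. Psme1 and Psme2 form the 11S activator, which opens the core without ubiquitin or ATP.

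Every 20S core, immunoproteasome and 19S gene had a slightly higher mean in the PTMA libraries, and none passed the test. Of the 36 subunits, 36 had a positive log2 fold change, from 0.02 for Psmc6 to 0.20 for Psmc4, with a median of 0.09, or 1.07-fold. Over all genes tested the share with a positive value was 46.8% and the median was -0.01. The share was 67.4%, with a median of 0.04, over the 2231 tested genes whose mean lay between 103 and 1187 CPM, the range of the 36 subunits. By class the medians were 0.10 for the 20S core, 0.08 for the immunoproteasome and 0.09 for the 19S particle, and the differences between classes were not tested. No member of the 49 tested passed over all genes (edgeR quasi-likelihood, smallest adjusted p = 0.951), where 0.0121% of all tested genes passed. At an unadjusted p under 0.05 there were 3 members, Psmb5, Psmc4 and Psmf1, all higher, where 1.92% of tested genes were higher and 2.72% lower at that level. Of the 36 subunits 2 were higher at that level, Psmb5 and Psmc4, and of the 2231 genes in their range of CPM 112 were (5.02%). DESeq2 called 0 members as well, where it called 0.253% of all genes, and gave 3 at an unadjusted p under 0.05.

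**Figure D1:**
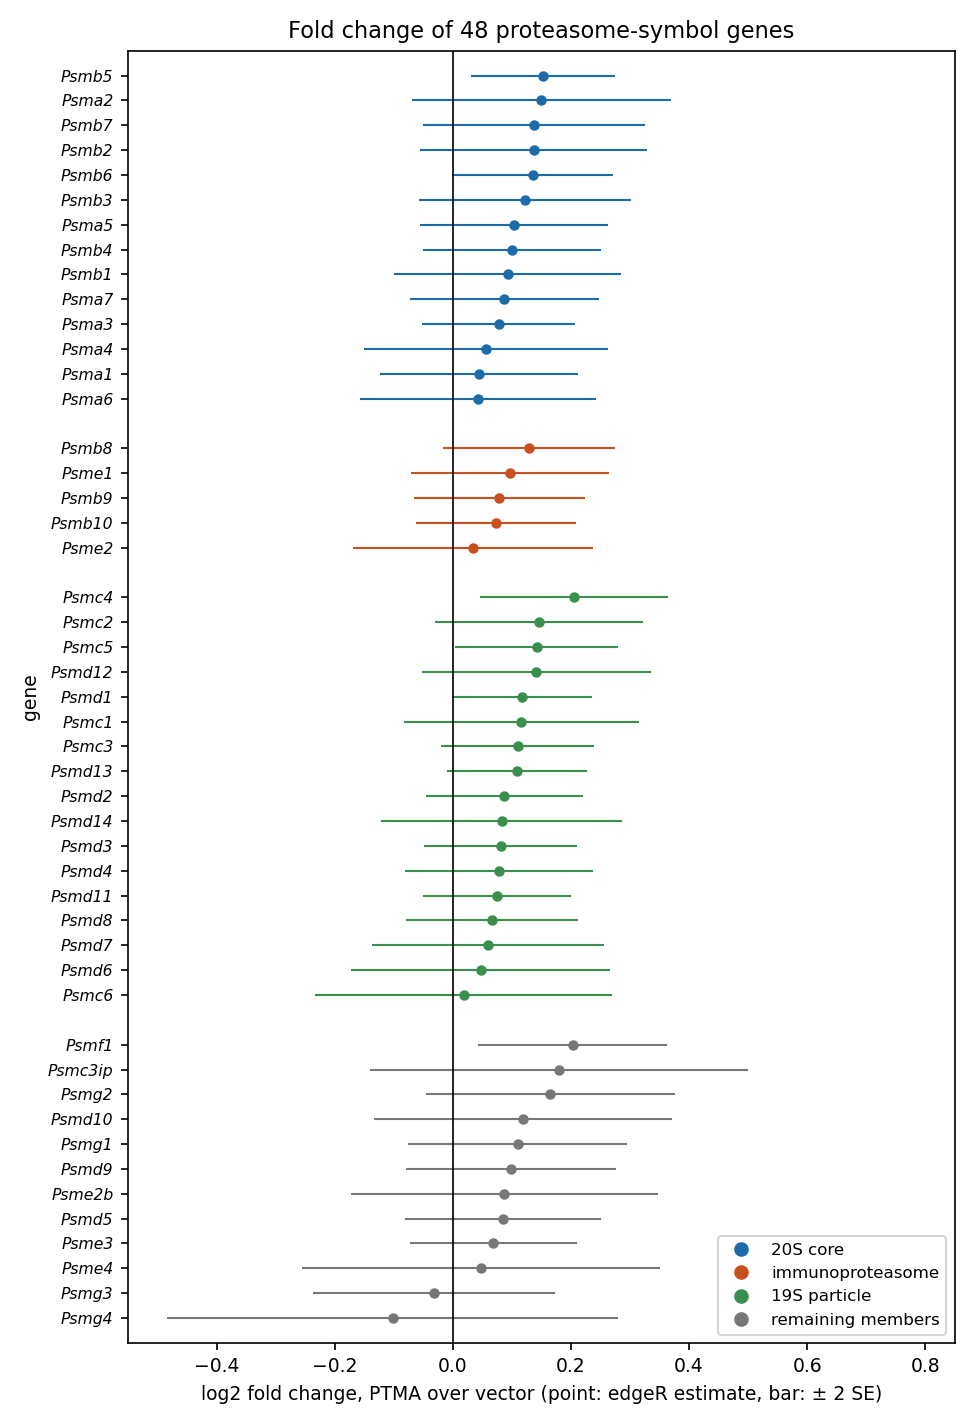
Log2 fold change of PTMA over vector for 48 members (x axis) by gene (y axis), coloured by class, with points for the edgeR estimate and bars for ± 2 SE. All 36 subunits of the 3 named classes lie right of 0, at up to 0.20, and the bars of all but Psmb5, Psmc4 and Psmc5 among them cross 0; Psma8 (SE 0.71) and Psmb11 (not tested) are not drawn. The bars are not the intervals of the test.

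In the plot of fold changes the intervals of ± 2 SE are a rough guide to the size of difference that the 6 libraries leave possible. They are not the intervals of the test: that of Psmc5 missed 0, while its unadjusted p was 0.071 (edgeR quasi-likelihood test). For Psmd11 that interval ran from -0.05 to 0.20 and for Psmc6 from -0.23 to 0.27. A change of 1.5-fold in either direction therefore lay outside it for both.

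The 7 alpha subunits (Psma1 to Psma7) had log2 fold changes of 0.04 to 0.15, with a median of 0.08. Psma7 had 355, 380 and 340 CPM in PTMA 1 to 3, against 315, 326 and 371 CPM in vector 1 to 3. The groups overlap, because vector 3 lay above PTMA 1 and PTMA 3. Psma2 had the largest value among the alpha subunits and averaged 333.5 ± 21.0 CPM in PTMA and 300.6 ± 48.7 CPM in vector (SD, n = 3 each). Psma6 had the smallest value, at 210.2 ± 7.42 CPM in PTMA and 204.0 ± 29.7 CPM in vector (SD, n = 3 each).

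The beta ring holds the structural subunits Psmb1 to Psmb4, with log2 fold changes of 0.09 to 0.14, and the constitutive catalytic subunits Psmb5, Psmb6 and Psmb7, with 0.14 to 0.15. Psmb5, which cuts after hydrophobic residues, had 301, 296 and 285 CPM in PTMA 1 to 3, against 260, 274 and 259 CPM in vector 1 to 3. All 3 PTMA libraries were above all 3 vector libraries, and Psmb5 was the only core gene of which this held. Its log2 fold change was 0.15 (SE 0.06, edgeR quasi-likelihood adjusted p = 0.951). Psmb6, which cuts after acidic residues, had 289, 309 and 282 CPM in PTMA 1 to 3, against 255, 264 and 282 CPM in vector 1 to 3. Its log2 fold change was 0.14 (SE 0.07, edgeR adjusted p = 0.951), and vector 3 lay just above PTMA 3. Psmb7, which cuts after basic residues, had 107, 110 and 107 CPM in PTMA 1 to 3, against 92.2, 89.6 and 113 CPM in vector 1 to 3. Here vector 3 was the highest of all 6 libraries, and the log2 fold change was 0.14 (SE 0.09, edgeR adjusted p = 0.951).

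Psmb5 and Psmb6 are shown with part of their promoters because they led the core genes by p-value and alone among the core genes with a RefSeq promoter held the letters TGACNNNGC. The transcription factor Nfe2l1 (Nrf1) is known to raise proteasome subunits together through antioxidant response elements. The letters TGACNNNGC are those of that element, and they were searched on both strands in the 300 bases that RefSeq gives around each gene start (GRCm38.p6, 250 before and 50 after), and matches are in capitals. Both stretches hold 100 bases upstream of the annotated transcripts, chr14:54618026-54618125 on the minus strand and chr11:70525257-70525356 on the plus strand.
Psmb5: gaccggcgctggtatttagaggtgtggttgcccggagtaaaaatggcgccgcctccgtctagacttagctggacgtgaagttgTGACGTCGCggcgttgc
Psmb6: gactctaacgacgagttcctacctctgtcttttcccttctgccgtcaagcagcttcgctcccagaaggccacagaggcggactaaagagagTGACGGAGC
RefSeq gave 45 promoters for 42 of the 50 members, and none in this table for Psma8, Psmb1, Psmb2, Psmb7, Psmc3, Psmd3, Psmd7 and Psmg2. The element's letters stood in 6 of the 45 (13.3%) and in 2 of the 12 core promoters (16.7%), against 12.4% of all 32851 promoters. A role of Nfe2l1 in these libraries was not tested. The interferon-stimulated response element was searched as GAAA, any 2 bases and GAAA on both strands. It stood in 5 of the 45 (11.1%), against 3.44% of all promoters. Among those 5 were that of the core gene Psmb3 and 1 of 6 immunoproteasome promoters, that of Psme1. Psme2 has 2 of those 6, which overlap each other. The Psmb10 promoter (chromosome 8, 105938343 to 105938642) lies wholly outside the gene as listed (105935735 to 105938104). No match of either motif overlapped the other in a member. A match is only a run of letters, and its absence says nothing of a factor.

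The 5 immunoproteasome genes averaged from 133 CPM for Psmb10 to 1187 CPM for Psmb8 over the 6 libraries. Psmb8 had the highest level of all members in 6 of 6 libraries, by counts and per kilobase alike. Psmb8 (beta 5i) had 1241, 1302 and 1177 CPM in PTMA 1 to 3, against 1051, 1132 and 1218 CPM in vector 1 to 3. Vector 3 lay between PTMA 3 and PTMA 1, so the groups overlap, and the log2 fold change was 0.13 (SE 0.07, edgeR adjusted p = 0.951). Psmb9 (beta 1i) had 345, 348 and 337 CPM in PTMA 1 to 3, against 314, 306 and 356 CPM in vector 1 to 3. Its log2 fold change was 0.08 (SE 0.07, edgeR adjusted p = 0.952), with vector 3 the highest library. Psmb10 (beta 2i) had 140, 139 and 130 CPM in PTMA 1 to 3, against 124, 131 and 134 CPM in vector 1 to 3. Psmb8 (chromosome 17, 34197721 to 34201454) and Psmb9 (chromosome 17, 34181987 to 34187764) lie close together in the MHC class II region on GRCm38, and the libraries of both groups overlapped for each.

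Psme1 of the 11S activator had 283, 298 and 284 CPM in PTMA 1 to 3, against 257, 249 and 304 CPM in vector 1 to 3. Its log2 fold change was 0.10 (SE 0.08, edgeR adjusted p = 0.952). Psme2, its partner, had 283, 302 and 263 CPM in PTMA 1 to 3, against 259, 249 and 320 CPM in vector 1 to 3. In both genes vector 3 was the highest library. All 5 immunoproteasome genes overlapped between the groups, where 5.39% of tested genes had all 3 PTMA libraries above all 3 vector libraries and 5.38% had them below.

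Psme2 has a near-identical copy, Psme2b, which is intronless, lies on chromosome 11 (48945354 to 48946190) and is listed as protein-coding in the table. Their coding sequences differ at 5 of 717 bases and are identical over a run of 311 bases, longer than the stated average insert of the libraries. The 60 coding bases with the most differences, 484 to 543 counted from the first base of the start codon, show how little sets them apart; capitals mark the differing bases.
Psme2: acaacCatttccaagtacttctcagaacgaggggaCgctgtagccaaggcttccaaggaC
Psme2b: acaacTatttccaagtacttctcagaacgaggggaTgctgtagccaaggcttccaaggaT
In that stretch the substitutions from Psme2 to Psme2b are C489T, C519T and C543T. Psme2b took 18.3%, 20.2% and 22.0% of the summed CPM of both genes in PTMA 1 to 3, against 18.9%, 19.4% and 20.2% in vector 1 to 3. The sum was 353.9 ± 21.4 CPM in PTMA and 343.0 ± 50.1 CPM in vector (SD, n = 3 each), a log2 difference of 0.05 (exact two-sided permutation test, p = 0.7, where 0.1 is the smallest that 3 against 3 allows). How reads with several matches were counted is not given in the sources used here, so the split between both genes is uncertain. The catalytic pairs are far less alike: the coding sequences of Psmb5 and Psmb8 were 67.1% identical, those of Psmb6 and Psmb9 66.2% and those of Psmb7 and Psmb10 63.3%, with identical runs of at most 18 bases.

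The ratio of each inducible subunit to the constitutive subunit that it replaces differed between groups by less than the SD of the vector libraries. For Psmb9 to Psmb6 and Psmb10 to Psmb7 the difference of the means was larger than the SD of the PTMA libraries, which was the smaller of both. From the deposited FPKM, which scale fragments by gene length, Psmb8 to Psmb5 was 1.10, 1.17 and 1.10 in PTMA 1 to 3, against 1.08, 1.10 and 1.25 in vector 1 to 3. Psmb9 to Psmb6 was 0.611, 0.575 and 0.612 in PTMA 1 to 3, against 0.629, 0.593 and 0.645 in vector 1 to 3. Psmb10 to Psmb7 was 2.62, 2.53 and 2.44 in PTMA 1 to 3, against 2.69, 2.93 and 2.39 in vector 1 to 3. The groups overlap in each of the 3 ratios. The differences of the mean log2 ratio, PTMA minus vector, were -0.02, -0.05 and -0.07 (exact two-sided permutation tests, p = 0.8, 0.4 and 0.5; adjusted over the 3 ratios 0.8, 0.75 and 0.75). With 3 libraries against 3, these tests cannot go below 0.1.

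**Figure D2:**
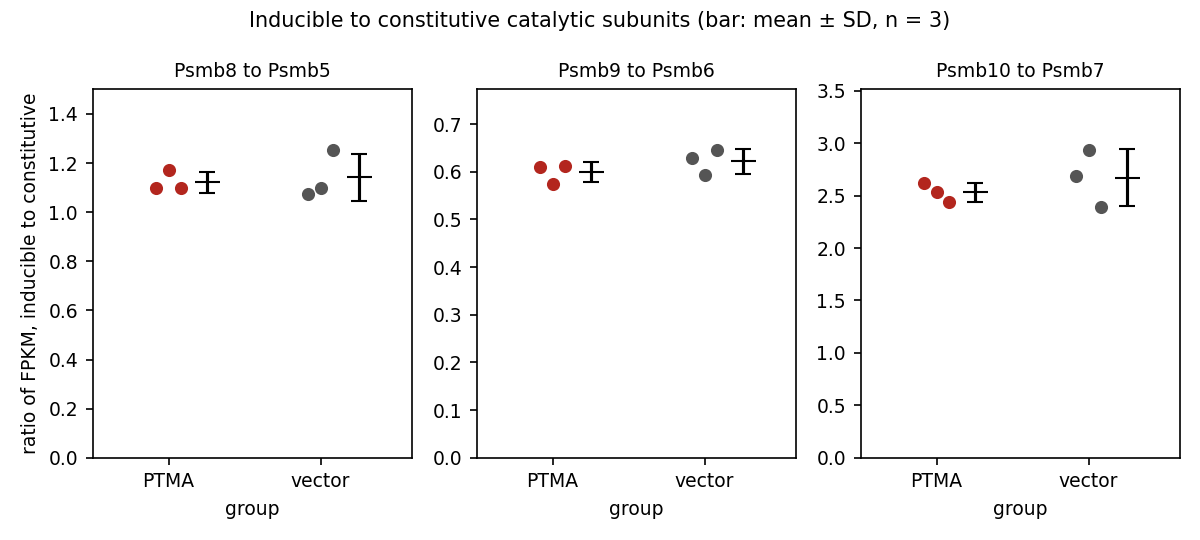
Ratio of deposited FPKM (y axis, from 0) of the inducible to the constitutive catalytic subunit in the PTMA and vector libraries (x axis), with a point per library and a bar for mean ± SD (n = 3). Within each panel the groups overlap: Psmb8 to Psmb5 lies between 1.08 and 1.25, Psmb9 to Psmb6 between 0.575 and 0.645, and Psmb10 to Psmb7 between 2.39 and 2.93.

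The level of these ratios, unlike the difference between groups, rests on the gene length behind the FPKM. Over 10137 genes that reached 200 counts in each of the libraries, the length implied by count and FPKM matched the union of all annotated exons within 1% for 98.3%, up to a common factor, and that of the longest transcript for 2.6%. That union takes in retained introns and noncoding transcripts: it is 3421 bases for Psmb7 where its mRNA has 1160, and 3381 for Psmb8 where its mRNA has 1628, but 899 for Psmb5 on both counts. Per kilobase of the mRNA with the longest coding sequence, Psmb8 to Psmb5 was 2.33 ± 0.0874 in PTMA and 2.37 ± 0.199 in vector (SD, n = 3 each), in place of 1.12 ± 0.0421 and 1.14 ± 0.0956. Psmb10 to Psmb7 was 1.12 ± 0.0414 in PTMA and 1.18 ± 0.12 in vector (SD, n = 3 each), in place of 2.53 ± 0.0938 and 2.67 ± 0.271. Psmb9 to Psmb6 was 0.692 ± 0.0240 in PTMA and 0.718 ± 0.0306 in vector per kilobase of mRNA, and 1.27 ± 0.0442 and 1.32 ± 0.0564 per kilobase of coding sequence (SD, n = 3 each). Whether Psmb9 or Psmb6 stands higher thus turns with the length used, whereas Psmb8 stands above Psmb5 and Psmb10 above Psmb7 with all 3 lengths.

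Between genes the levels spread widely, although most of these subunits are built into the particle in equal numbers. Per kilobase of mRNA, the 20S core ran from 73.5 ± 1.88 CPM for Psma3 to 405.5 ± 36.4 CPM for Psmb3 in PTMA, and from 69.6 ± 3.34 to 372.7 ± 32.7 CPM for the same genes in vector (SD, n = 3 each). Psmb8 stood above that range, at 761.5 ± 38.4 CPM per kilobase in PTMA and 696.3 ± 51.4 in vector (SD, n = 3 each). The 19S particle ran from Psmc6, with 47.4 ± 2.42 CPM per kilobase in PTMA and 46.8 ± 9.08 in vector, to Psmd8, with 189.3 ± 8.59 and 180.9 ± 12.9 (SD, n = 3 each). This order depends on the transcript chosen for each gene. Per kilobase of coding sequence Psma3 had 259 CPM in vector, above Psmb7 with 118 CPM.

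**Figure D3:**
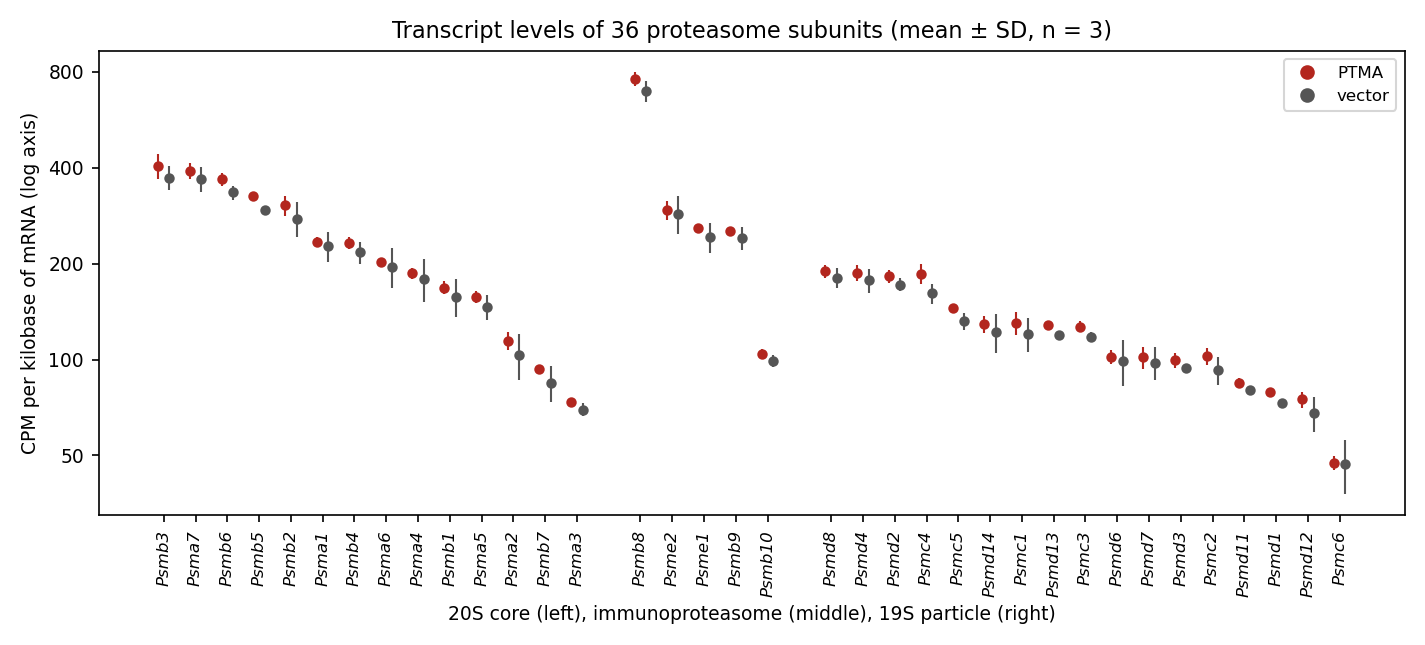
TMM-scaled CPM per kilobase of mRNA (y axis, log) for 36 subunits (x axis) in PTMA and vector libraries, as mean ± SD (n = 3). The level differs between subunits far more than between groups, with Psmb8 highest at 761.5 in PTMA and 696.3 in vector and Psmc6 lowest at 47.4 and 46.8.

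Among the 17 genes of the 19S particle, the ATPases of the base (Psmc1 to Psmc6) had a median log2 fold change of 0.13, the non-ATPase base subunits Psmd1, Psmd2 and Psmd4 of 0.09, and the 8 lid subunits of 0.08. Psmc4, an ATPase, had 259, 290 and 254 CPM in PTMA 1 to 3, against 230, 216 and 250 CPM in vector 1 to 3. Its log2 fold change of 0.20 (SE 0.08, edgeR adjusted p = 0.951) was the largest among the 36 subunits, and all PTMA libraries lay above all vector libraries. Psmc5, another ATPase, had 191, 197 and 187 CPM in PTMA 1 to 3, against 174, 163 and 184 CPM in vector 1 to 3 (log2 fold change 0.14, SE 0.07, edgeR adjusted p = 0.951). Psmd1, a large scaffold of the base, had 251.2, 238 and 249.5 CPM in PTMA 1 to 3, against 224, 229 and 229 CPM in vector 1 to 3 (log2 fold change 0.12, SE 0.06, edgeR adjusted p = 0.951). The deubiquitinase of the lid, Psmd14, overlapped between groups, at 198.9 ± 12.3 CPM in PTMA and 187.8 ± 26.3 CPM in vector (SD, n = 3 each). Of the 36 subunits, 5 had all 3 PTMA libraries above all 3 vector libraries (13.9%), namely Psmb5, Psmc4, Psmc5, Psmd1 and Psmd13. That share was 5.39% of all tested genes and 13.0% of the 2231 genes in the same range of CPM, which is close to the share among the subunits.

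In each library but PTMA 3, at least 30 of the 36 subunits lay on the same side of their own mean. In vector 1 and in vector 2, all 36 subunits were below their own mean over the 6 libraries, with medians of -0.11 and -0.13 on the log2 scale. In vector 3, 32 of 36 were above it, with a median of 0.09, close to PTMA 2 with 36 of 36 above and a median of 0.12. PTMA 1 had 30 of 36 above (median 0.04) and PTMA 3 had 18 of 36 (median 0.00). Over the 2231 genes in the same range of CPM the medians had the same sign in vector 1 (-0.04), vector 2 (-0.04) and PTMA 2 (0.05), and lay near 0 in vector 3 (-0.00). Of those genes 35.9% were above their mean in vector 1, 38.0% in vector 2, 49.4% in vector 3 and 66.8% in PTMA 2, as were 61.3% in PTMA 1 and 52.3% in PTMA 3. The exceptions in vector 3 were Psmb5, Psmd1, Psmd3 and Psmd13, of which Psmb5 lay lowest, at -0.11.

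**Figure D4:**
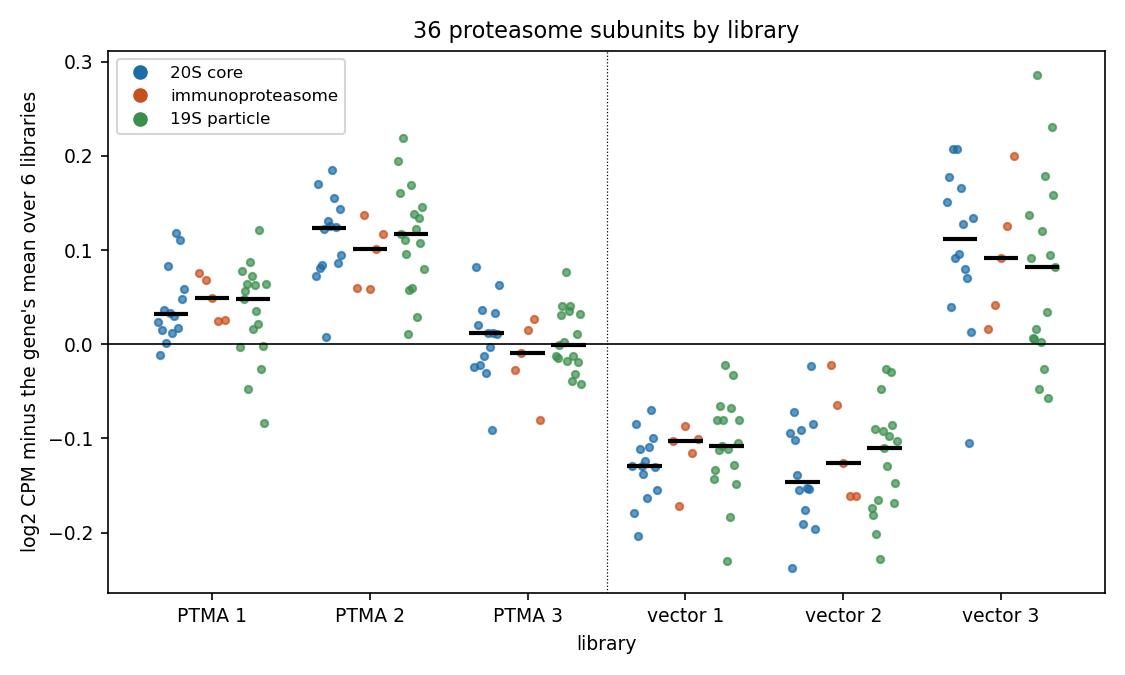
Log2 CPM of 36 subunits minus each gene's mean over the 6 libraries (y axis) in each library (x axis), with a point per gene coloured by class and a black line for the class median. All points of vector 1 and vector 2 lie below 0, all points of PTMA 2 above it, and 32 of 36 in vector 3 above it.

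All 3 classes shared this order, as the plot by library shows. The summed level of the 20S core was 3608, 3806 and 3515 CPM in PTMA 1 to 3, against 3204, 3202 and 3765 CPM in vector 1 to 3. The immunoproteasome summed to 2293, 2388 and 2191 CPM in PTMA 1 to 3, against 2005, 2066 and 2331 CPM in vector 1 to 3. The 19S particle summed to 3819, 4024 and 3727 CPM in PTMA 1 to 3, against 3471, 3439 and 3881 CPM in vector 1 to 3. In each class vector 3 lay between PTMA 1 and PTMA 2, and the other vector libraries lay below all PTMA libraries. Without vector 3 the median over the 36 subunits was 0.17, and 28 of them had an unadjusted p under 0.05 (edgeR). Of all tested genes 15.4% did, in either direction. That share was not computed for the 2231 genes in the subunits' range of CPM. With all libraries kept, 5.02% of those genes were higher at that level, against 1.92% of all tested genes. Without vector 3 none of the members passed after adjustment (edgeR, smallest adjusted p among the members 0.191). Of the 49 members, 32 had an unadjusted p under 0.05 without vector 3, against 1 without PTMA 1, 0 without PTMA 2, 3 without PTMA 3, 0 without vector 1 and 1 without vector 2. Over all tested genes those 5 other omissions gave 4.21%, 2.87%, 4.88%, 2.59% and 3.97% at that level, in the same order. In bulk libraries, fewer cells of a type and less RNA per cell cannot be told apart.

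Of the 14 remaining members 13 were tested, of which 11 had a positive log2 fold change, with a median of 0.10. Psmf1, the inhibitor PI31, had 105, 105 and 90.9 CPM in PTMA 1 to 3, against 88.2, 84.3 and 89.1 CPM in vector 1 to 3. All PTMA libraries were above all vector libraries, PTMA 3 only just, and the log2 fold change was 0.20 (SE 0.08, edgeR adjusted p = 0.951). Of the core assembly chaperones, Psmg2 had 46.5, 50.5 and 46.0 CPM in PTMA 1 to 3, against 41.7, 37.6 and 48.3 CPM in vector 1 to 3 (log2 fold change 0.17, SE 0.11, edgeR adjusted p = 0.951). Its partner Psmg1 had 51.6, 53.5 and 48.1 CPM in PTMA 1 to 3, against 43.0, 47.4 and 51.5 CPM in vector 1 to 3 (log2 fold change 0.11, SE 0.09, edgeR adjusted p = 0.952). Both overlapped, with vector 3 inside the range of the PTMA libraries. Psmg3 and Psmg4 were the only members with a negative value, at -0.03 and -0.10, each smaller than its SE of 0.10 and 0.19. The base assembly chaperones Psmd5, Psmd9 and Psmd10 had 0.09 to 0.12. Psme3, the nuclear activator PA28 gamma, averaged 375.0 ± 20.5 CPM in PTMA and 357.6 ± 20.9 CPM in vector, and Psme4 (PA200) 30.3 ± 4.54 and 29.4 ± 5.01 CPM (SD, n = 3 each). Psmc3ip averaged 21.9 ± 4.05 CPM in PTMA and 19.4 ± 3.10 CPM in vector (SD, n = 3 each). Psma8, the alpha subunit of the testis, stayed at 0.167 to 0.643 CPM in the PTMA and 0.108 to 0.50 CPM in the vector libraries. Psmb11, the beta subunit of the thymus, had a count of 0 in all libraries but PTMA 3, which had 0.0609 CPM, and it did not pass the filter on low counts.

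Other genes that act with the proteasome showed no common direction. Of 29 such genes with a row, among them ubiquitin genes, shuttles, deubiquitinases and the regulator Nfe2l1, 15 had positive and 14 negative log2 fold changes, with a median of 0.00, and 0 passed the test (edgeR, 0 at an unadjusted p under 0.05). The deubiquitinase Usp14, which sits on the 19S particle, averaged 125.1 ± 0.816 CPM in PTMA and 113.7 ± 6.07 CPM in vector, and the adaptor Ecpas 57.8 ± 3.83 and 65.5 ± 5.56 CPM (SD, n = 3 each). Their log2 fold changes were 0.14 (SE 0.07) and -0.18 (SE 0.09), both with an edgeR adjusted p of 0.951. Of 15 genes of peptide loading and interferon-gamma signalling, 9 were positive and 6 negative, with a median of 0.01, and 0 passed the test (edgeR, 0 at an unadjusted p under 0.05). Calr, a chaperone of MHC class I loading, averaged 382.0 ± 11.6 CPM in PTMA and 346.8 ± 14.9 CPM in vector, and Ifng 13.2 ± 1.37 and 15.8 ± 3.25 CPM (SD, n = 3 each), with edgeR adjusted p-values of 0.951 for both.

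Markers of other cell types were measured in the same libraries, and their part in the immunoproteasome values was not tested. The 9 dendritic and myeloid markers with a row summed to 351 to 391 CPM in PTMA and 342 to 372 CPM in vector, of which Ccr7, also a T cell gene, made up 332 to 373 and 330 to 360 CPM. Ccl22 averaged 6.76 ± 1.44 CPM in PTMA and 1.22 ± 0.759 CPM in vector, and Fscn1 1.71 ± 0.177 and 0.248 ± 0.145 CPM (SD, n = 3 each), with edgeR adjusted p-values of 0.199 and 0.318. Of the 9 markers 6 passed the filter on low counts, and Ccl22 and Fscn1 were the only 2 of these with an unadjusted p under 0.05 (edgeR). Both were picked by their p-values and do not stand for the list, whose sums, mostly Ccr7, overlapped between the groups. Itgax, Flt3, Xcr1 and Csf1r belong to the same list and are not given singly, so their direction is not shown here. Ccl17 and Il12b had a count of 0 in all vector libraries but not in all PTMA libraries, and no conclusion is drawn from these zeros. The 4 B cell markers summed to 5.37 to 6.69 CPM in PTMA and 3.95 to 4.95 CPM in vector, and the pair of natural killer cell markers to 9.51 to 11.6 and 9.45 to 10.9 CPM, with Ncr1 at 0 in all vector libraries. Ncr1 did not pass the filter on low counts and was not tested. The 6 oocyte markers summed to 1.56 to 4.15 CPM in PTMA and 22.8 to 33.7 CPM in vector. Of these Gdf9 passed the test, lower in PTMA, and Zp2 had a count of 0 in all PTMA libraries. The 3 keratin markers summed to 1.37 to 9.38 CPM in PTMA and 1.86 to 24.6 CPM in vector. An unadjusted p under 0.05 (edgeR) was found for 5 of the 6 oocyte markers and 2 of the 3 B cell markers tested. For the keratin and natural killer cell markers that count was 0. Over all tested genes 1.92% were higher and 2.72% lower at that level. Of the B cell markers 0 passed after adjustment.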

How the data were processed

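Bulk RNA sequencing of poly(A) RNA was analysed for 3 PTMA and 3 vector libraries, grouped and numbered by their titles. The authors deposited raw counts per gene and library, per the file headers, and FPKM per gene and library in the same table. Bowtie 0.12.2, StringTie 1.3.0, HISAT2 2.0 and the build mm8 are listed without a role, per the submitters' processing notes. The gene coordinates match GRCm38 instead (99.7% of 27405 identifiers share a start or end with GENCODE M21). Which program counted, whether it used strand and what it did with multiply matching reads is not given in the sources used.

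Counts were fitted with edgeR 4.0.16 (R 4.3.3): TMM scaling, filterByExpr (minimum count 10), quasi-likelihood test, group as the only term, 16592 genes, Benjamini-Hochberg threshold 0.05. The SE is the absolute log2 fold change over the root of F. Fold changes are PTMA over vector. Members and lists were chosen with earlier results of these data known. Tests are printed for the 3 members of each class with the smallest p-values and for the pair with the smallest in each other list, and levels are given for the catalytic pairs, Psme1 and Psme2 as well; further genes were named after their values were seen. Some genes of the lists have no row and were not analysed here. On simulated counts for 16592 genes in this comparison the share found by edgeR was 52.2% for a 1.5-fold change (67 genes), 79.1% for 2-fold (67 genes) and 95.5% for 4-fold (66 genes), beside 21 false calls. The changes were placed only in genes averaging above 1 CPM. Each simulated library was drawn independently around a common mean per gene, so none stood apart over many genes at once as vector 3 did. The shares hold for that setting and do not give the power of the real comparison. Replicates were checked for duplication: the chi-square per gene between libraries of a group was 17.7 to 84.8, above the value near unity of sampling noise. Floors cover counting error only. Alternatives were other scalings, omission of the filter, DESeq2 1.42.0, a replicate block, omission of single libraries, and limma 3.58.1 on log2(FPKM + 1) or log2(FPKM + 0.1) for genes averaging 1 FPKM or more, or for all. Other gene lengths for the ratios and the sum of Psme2 and Psme2b were chosen after seeing the data.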

Additional observations from a re-analysis of the deposited data

How the results depend on the processing

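No member of the proteasome list passed the threshold in any of the 14 alternatives, and the log2 fold changes of the 12 genes given with tests kept their sign in all of them. Those 12 were picked by their p-values in the main fit, which favours a stable sign. The class medians were 0.05 to 0.11 over the alternatives that kept all libraries. With 1 library omitted they were 0.066 to 0.18 for the 20S core, 0.050 to 0.16 for the immunoproteasome and 0.065 to 0.16 for the 19S particle, each highest without vector 3. With a library left out, 30 to 36 of the 36 subunits were positive, the fewest without vector 1. With all libraries kept, 35 were positive on library sums without TMM and 36 in the other alternatives. The log2 difference of the Psmb8 to Psmb5 ratio ran from -0.064 to 0.045 when a library was left out and was positive only without vector 3; that of Psmb9 to Psmb6 ran from -0.088 to -0.025 and that of Psmb10 to Psmb7 from -0.15 to -0.0028. Genes past the threshold over the whole table numbered 2, and 0 to 4 with a library left out. They numbered 0 with no filter on low counts, 42 with DESeq2, 1 with limma on log2(FPKM + 1), 1 on log2(FPKM + 0.1) and 0 with no filter on FPKM; the cause was not tested.

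Deviations of same-numbered libraries correlated at 0.0019, -0.19 and -0.13, so the numbers are not taken to pair the samples. The replicate block gave 0 genes over the whole table, 0 members (0 at an unadjusted p under 0.05 as well), medians of 0.10, 0.08 and 0.09 for the 20S core, immunoproteasome and 19S particle, and ratio differences of -0.02, -0.05 and -0.07, where the smallest exact p with 3 pairs is 0.25.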
